A study of Mus musculus with 4 samples.

Results

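The secreted WNT antagonists are 8 of the 28692 genes listed for single stromal cells of the embryonic mouse gut: Sfrp1, Sfrp2, Sfrp5 and Frzb (the secreted frizzled-related proteins), Wif1 (WNT inhibitory factor), and Dkk1, Dkk2 and Dkk3 (the Dickkopf family). They were taken as a fixed list of gene symbols, without regard to their level. Droplet libraries (10x Genomics) were made from untreated E12.5 embryos, 2 from the small intestine (SI) and 2 from the large intestine with the cecum (LI), and replicates are called SI1, SI2, LI1 and LI2. The strain was EYFP (C57BL/6) in every library, from EYFP males mated with C57BL/6Nrj females, and several embryos were pooled in each of 2 experiments. Cells had been sorted as live, Itgb1+ and YFP+, and as CD45-, Ter119-, CD31- and EpCAM-, a gate that removes leukocytes, erythroid cells, endothelium and epithelium. All groups share that gate, and pooled embryos leave no value for a single animal. In these bulk sums over cells, fewer cells carrying a transcript and less transcript per cell cannot be told apart from a level alone, so that shares of cells are given beside the levels.

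WNT proteins are secreted lipid-modified signals that bind Frizzled receptors. In the canonical branch they also bind the co-receptors LRP5 and LRP6, and β-catenin then accumulates and acts in the nucleus with TCF and LEF factors. Sfrp proteins carry a cysteine-rich domain like that of Frizzled, and these proteins and Wif1 bind WNT proteins outside the cell. Dkk1 and Dkk2 bind LRP5 and LRP6 instead, whereas Dkk3 is a divergent relative whose part in WNT signaling is less settled. In the gut, WNT signals sustain the epithelial stem cells, and stromal cells are a source of both WNT ligands and their antagonists.

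Promoter windows, from 250 bases before to 50 bases after the RefSeq start site (build GRCm38.p6), were on hand for 6 of the 8 genes. Those of 4 members are shown because the results below turn on these genes: Dkk2 and Sfrp2, which were detected in many cells and differ between cell groups, Wif1, which was called between regions, and Dkk1, which was found in few cells and is itself a known target of canonical WNT signaling. Capitals mark CTTTGA on either strand (TCAAAG is the same 6 letters on the other strand), the core that TCF and LEF factors bind. The windows lie at chr19:30549447-30549746 on the minus strand (Dkk1) and, on the plus strand, at chr3:132085042-132085341 (Dkk2), chr3:83766071-83766370 (Sfrp2) and chr10:121033754-121034053 (Wif1).
Dkk1: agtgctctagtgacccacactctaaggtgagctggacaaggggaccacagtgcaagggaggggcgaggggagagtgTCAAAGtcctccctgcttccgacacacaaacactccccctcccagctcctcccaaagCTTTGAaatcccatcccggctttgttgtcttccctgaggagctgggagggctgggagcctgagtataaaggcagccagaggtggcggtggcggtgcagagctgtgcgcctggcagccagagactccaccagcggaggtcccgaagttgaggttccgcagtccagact
Dkk2: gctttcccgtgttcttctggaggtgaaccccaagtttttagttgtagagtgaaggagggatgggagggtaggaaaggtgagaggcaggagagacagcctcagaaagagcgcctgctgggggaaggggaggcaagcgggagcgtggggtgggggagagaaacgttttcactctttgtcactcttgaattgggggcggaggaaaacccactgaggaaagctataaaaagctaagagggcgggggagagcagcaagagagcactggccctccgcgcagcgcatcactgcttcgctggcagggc
Sfrp2: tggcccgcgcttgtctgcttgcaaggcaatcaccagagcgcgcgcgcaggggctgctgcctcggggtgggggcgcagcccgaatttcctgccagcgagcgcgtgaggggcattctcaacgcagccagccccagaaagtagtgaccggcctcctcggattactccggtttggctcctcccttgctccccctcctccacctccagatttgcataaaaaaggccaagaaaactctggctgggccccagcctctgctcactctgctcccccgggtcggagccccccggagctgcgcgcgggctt
Wif1: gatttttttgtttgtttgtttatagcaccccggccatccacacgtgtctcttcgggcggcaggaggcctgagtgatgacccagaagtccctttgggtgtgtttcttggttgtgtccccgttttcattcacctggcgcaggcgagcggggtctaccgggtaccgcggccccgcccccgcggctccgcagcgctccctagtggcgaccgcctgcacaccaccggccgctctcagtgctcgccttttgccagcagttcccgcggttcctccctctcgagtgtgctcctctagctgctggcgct
The Dkk1 window held 2 matches, the Frzb window 1, and the windows of Dkk2, Sfrp2, Sfrp5 and Wif1 held none. Of 32851 mouse promoters of the same length, 5257 held at least 1 match, against 2 of the 6 members. A match is a run of letters and no evidence of binding.

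The 4 libraries held 5151 to 6881 cell barcodes and 31630548 to 62886525 unique molecular identifiers (UMIs, each a captured transcript molecule), and 22094 cells passed the filters. LI1 was the shallowest, at 4220.5 UMIs in its median cell, against 8382 to 8829 in the other libraries. Pairs of libraries shared 8 to 15 barcodes. Clusters were made without the 8 members and without the other WNT genes counted below. Smooth muscle-like cells (4974) were cluster 1, mesothelial-like cells (1321) cluster 5, and neural-like cells (1246) clusters 7 and 9. The other mesenchyme (10455 cells) was made up of clusters 0, 2 and 4, and clusters 3, 6, 8 and 10 (4098 cells) stayed unnamed. In clusters 3, 6 and 8, 10, 9 and 10 of 10 fibroblast markers were detected. Each was left unnamed through a single leading gene of another marker class, Rgs5, Epcam and Barx1 in that order. Clusters 3 and 6 held 12752 and 3710 of the 56108 Sfrp1 UMIs. The summed level of 10 mesothelial markers was 1618 to 2380 CPM (a gene's UMIs over all UMIs of the summed cells, scaled to 1000000) in mesothelial-like cells and at most 53.8 in the other groups, and that of 15 neural markers was 3232 to 5002 CPM in neural-like cells and at most 153 elsewhere. The labels were less sharp for smooth muscle, whose 12 markers summed to 1989 to 12010 CPM in smooth muscle-like cells, lowest in LI1, and to 1121 to 2142 CPM in the other mesenchyme.

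Over all kept cells, Sfrp1 gave 56108 UMIs in 11129 cells (50.4%), Dkk2 gave 10544 UMIs in 6539 cells (29.6%) and Sfrp2 gave 3156 UMIs in 2504 cells (11.3%). Dkk3 followed with 1114 UMIs in 1052 cells (4.76%) and Frzb with 407 UMIs in 390 cells (1.77%). Dkk1 had 161 UMIs in 74 cells, Wif1 92 UMIs in 85 cells and Sfrp5 12 UMIs in 12 cells. All 8 members were therefore detected, 3 of them in over 10% of cells.

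**Figure D1:**
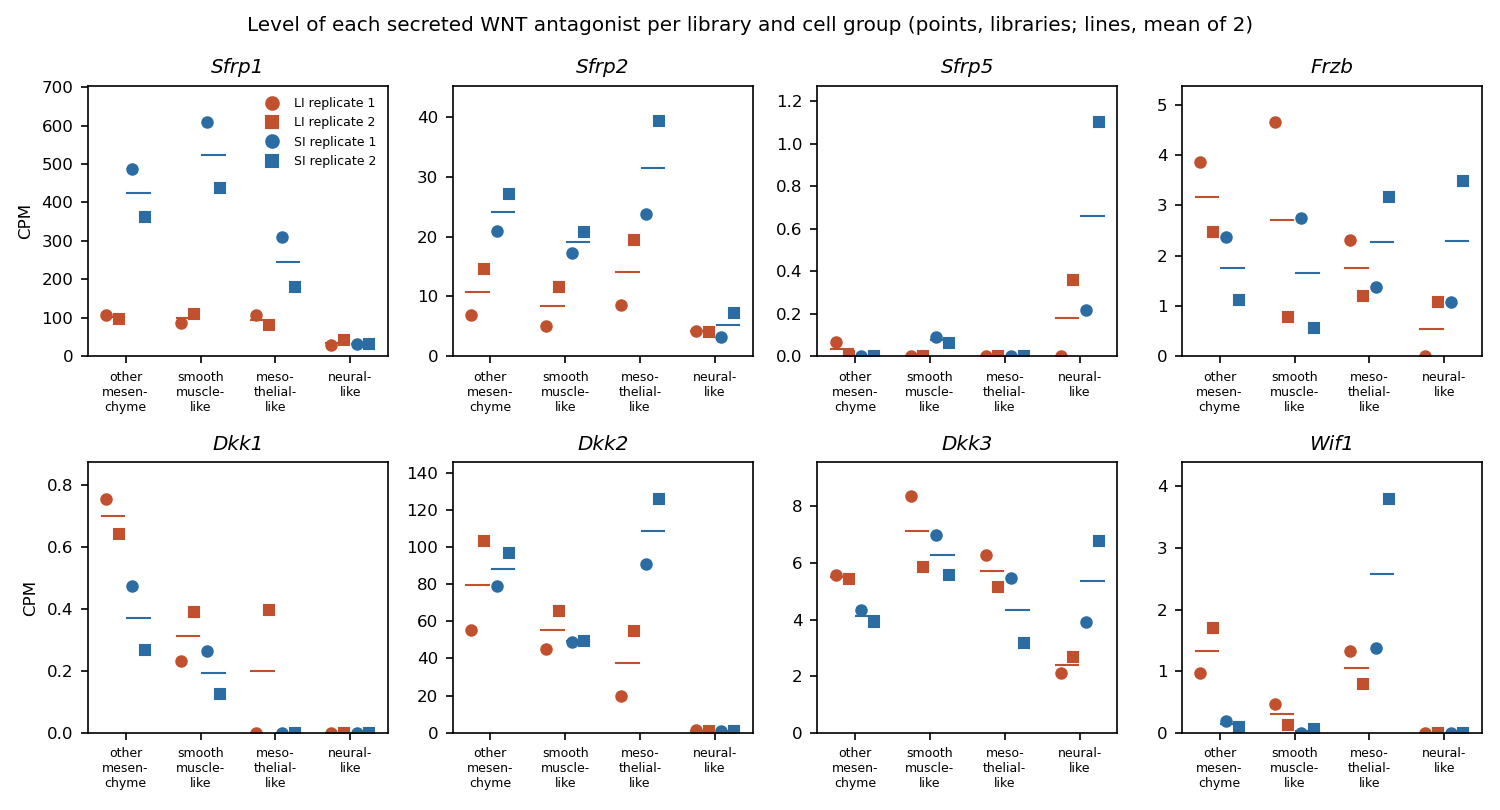
Level of each of the 8 secreted WNT antagonists in CPM (linear axes that differ in range), by cell group; points are libraries, with LI in red and SI in blue, and lines are means of 2 libraries. Sfrp1 in SI lies above LI in the other mesenchyme (363 and 488 CPM against 97.1 and 107), and its 4 neural-like points lie close together.

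Sfrp1 (ENSMUSG00000031548, chr8:23411502-23449632, plus strand, mm10) differed between the regions in most cell groups: it was higher in SI in the other mesenchyme, in smooth muscle-like cells and in mesothelial-like cells. In the other mesenchyme its level was 107 CPM in LI1, 97.1 in LI2, 488 in SI1 and 363 in SI2. The means were 102 ± 6.90 CPM in LI and 425 ± 88.2 in SI (SD, n = 2), and both SI libraries lay far above both LI libraries. In edgeR's quasi-likelihood test on summed counts, Sfrp1 was higher in SI by 2.21 ± 0.21 on the log2 scale (± SE, 95% interval 1.72 to 2.69, adjusted p = 0.000961). Of all genes tested in this comparison 3.51% were called, and of the 7 members tested 2 were called, Sfrp1 and Wif1. With 1 library left out at a time the difference ran from 1.96 to 2.42 and stayed called, and the number of members called was 3 or, without SI2, 1. A fit without 1 library leaves a single library in that region, which is assumed to vary as much as the pair of the other region, and such fits called 449 to 1759 genes, against 480 with all 4 libraries.

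Smooth muscle-like cells showed the same direction. Sfrp1 stood at 87.2 and 111 CPM in the LI libraries and at 609.9 and 437 CPM in the SI libraries, which differed by 2.54 ± 0.23 in log2 units (adjusted p = 0.00354 in edgeR). It was the only member called of 5 tested, where 1.29% of all genes were called. In mesothelial-like cells the levels were 107 and 80.6 CPM in LI and 309.7 and 181 CPM in SI, and the log2 difference was 1.45 ± 0.28 (edgeR, adjusted p = 0.0373). Here Sfrp1 was 1 call among 4 members tested, against 0.892% of all genes. That call was lost without SI1, with a log2 difference of 0.99 and an adjusted p of 0.163. The regions did not overlap in any of these groups.

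Neural-like cells were the exception for Sfrp1. Its level was 28.7 and 41.3 CPM in LI and 32.1 and 31.9 CPM in SI, so that both SI values lay between those of LI. The log2 difference was −0.21 ± 0.22 (95% interval −0.71 to 0.28, edgeR adjusted p = 0.861), an interval that lies below the differences measured in the 3 other groups. None of 3 members tested was called in neural-like cells by edgeR or by DESeq2, 1 had an unadjusted p under 0.05, and 0.31% of all genes were called. When the difference between regions was itself compared with that in the other mesenchyme, it was smaller in neural-like cells (interaction −2.42 ± 0.25 in log2 units, edgeR adjusted p = 2.49e-05). In that interaction 11.4% of all genes were called, and Sfrp1 was 1 call among 5 members. For smooth muscle-like cells the interaction of Sfrp1 was 0.34 (adjusted p = 0.817), in a test that called 0 of 5 members and 0.456% of all genes (0 members by DESeq2 or at an unadjusted p under 0.05), and for mesothelial-like cells it was −0.75 ± 0.22 (adjusted p = 0.113), neither of which was called. The mesothelial interaction of Sfrp1 was called in 3 of 10 alternatives, which were no filter on low counts, LI2 left out (−0.90, edgeR adjusted p = 0.0392) and unnamed clusters counted as other mesenchyme (−0.96, 0.0402), in fits that called 694, 234 and 249 genes against 211.

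The share of cells with Sfrp1 moved with its level. Cells with at least 3000 UMIs were thinned to that number, which evens out depth, and cells with fewer were left out. In the other mesenchyme this kept 2631 of 3322 cells in LI1 and 2228 of 2324 in LI2. It kept 2229 of 2259 cells in SI1 and 2513 of 2550 in SI2. After thinning, 15.1% and 12.3% of other mesenchymal cells in LI held at least 1 Sfrp1 UMI, against 63.4% and 54.4% in SI. Unthinned, the shares were 15.7% and 19.2% in LI and 81.3% and 74.0% in SI. The mean thinned share was 4.31 times as high in SI, the mean level 4.17 times, and the number of UMIs per positive cell 1.21 times (1.82 UMIs in LI and 2.19 in SI). The ratio of shares was thus close to the ratio of levels, and the UMIs per positive cell differed less. A positive cell holds at least 1 UMI by definition. At such low counts these ratios cannot separate more cells with the transcript from more transcript per cell. Smooth muscle-like cells gave the same picture, with thinned shares of 12.3% and 17.4% in LI and 75.7% and 64.8% in SI. In mesothelial-like cells the shares were 14.6% and 14.0% in LI and 52.9% and 34.1% in SI. In the neuron-like cluster 9, led by Stmn2 and Cartpt and singled out here after its values were seen, thinned Sfrp1 shares were 2.38% and 1.79% in LI and 3.90% and 3.64% in SI, and over all neural-like cells they were 8.02% to 10.7%. Free RNA was not measured, so that low shares such as these cannot be told from background.

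**Figure D2:**
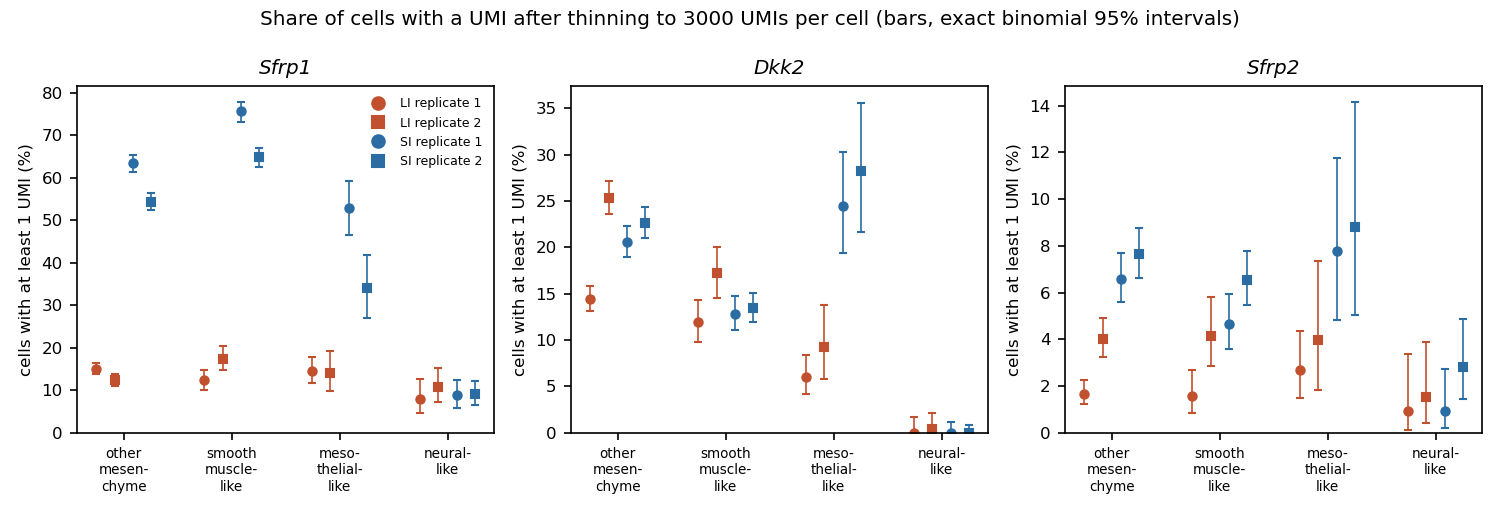
Percent of cells with at least 1 UMI of Sfrp1, Dkk2 or Sfrp2 by cell group, among cells of at least 3000 UMIs thinned to 3000. Each library is 1 point, with exact binomial 95% intervals as bars. For Sfrp1 in the other mesenchyme the SI libraries lie at 63.4% and 54.4% and the LI libraries at 15.1% and 12.3%.

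Sfrp2 (ENSMUSG00000027996, chr3:83766321-83774316, plus strand) had higher values in SI than in LI in each of the 3 non-neural groups. The main edgeR fit, from which the alternatives depart, called it in none of them. In the other mesenchyme it stood at 6.88 and 14.5 CPM in the LI libraries and at 20.99 and 27.1 CPM in the SI libraries, without overlap. The log2 difference was 1.31 ± 0.31 (95% interval 0.59 to 2.02, edgeR adjusted p = 0.0646). DESeq2 called it with an adjusted p of 0.00286. With 1 library left out the log2 difference ran from 0.88 to 1.91, and Sfrp2 was called without LI1, LI2 or SI1, in fits that called 754, 1759 and 558 genes against 480 with all 4 libraries. Of 13 alternatives for the group as a whole 8 called Sfrp2 and 5 did not, and of 5 single clusters it was called in 2, clusters 0 and 3. In smooth muscle-like cells the values were 5.11 and 11.6 CPM in LI and 17.3 and 20.7 CPM in SI (log2 difference 1.28 ± 0.34, edgeR adjusted p = 0.176), and in mesothelial-like cells 8.61 and 19.4 CPM in LI and 23.7 and 39.3 CPM in SI (1.24 ± 0.39, 0.232). LI1, the shallowest library, was lowest in each of these groups, also by the share of cells thinned to 3000 UMIs. With sums thinned to equal totals the log2 difference of Sfrp2 was 1.33 in the other mesenchyme (edgeR adjusted p = 0.0405), 1.24 in smooth muscle-like cells (0.224) and 1.13 in mesothelial-like cells (0.227). Of 11 alternatives in smooth muscle-like cells 4 called Sfrp2, and 4 of 11 did in mesothelial-like cells. Some of the alternatives leave a single library in a region. Thinned shares in the other mesenchyme were 1.67% and 3.99% in LI and 6.59% and 7.64% in SI. An exon of Sfrp2 overlaps the antisense gene Gm26771, and reads from the pair may not all be told apart.

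The other frizzled-related genes were sparse. Frzb (ENSMUSG00000027004, chr2:80411970-80447625, minus strand) stood at 3.85 and 2.48 CPM in LI and 2.37 and 1.12 CPM in SI in the other mesenchyme. In smooth muscle-like cells it was at 4.65, 0.781, 2.74 and 0.557 CPM in LI1, LI2, SI1 and SI2. LI1 lay above LI2 and SI1 above SI2 in both groups, and the regions overlapped in smooth muscle-like cells. In mesothelial-like cells, at 2.32, 1.19, 1.37 and 3.17 CPM, and in neural-like cells, at 0, 1.08, 1.09 and 3.49 CPM in the same order, SI2 was the highest instead. Sfrp5 (ENSMUSG00000018822, chr19:42197971-42202252, minus strand) had 9 of its 12 UMIs in neural-like cells, all of them in cluster 7, which Foxd3 and Sox10 led, with 0, 2, 1 and 6 UMIs in LI1, LI2, SI1 and SI2. Its counts were below the filter, so that it was tested only without one. There Sfrp5 was called between neural-like cells and the other mesenchyme (edgeR adjusted p = 0.0067) and in no other comparison, in a fit that called 8071 of 20049 genes.

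Wif1 (ENSMUSG00000020218, chr10:121033960-121100650, plus strand) was the member called in the opposite direction. The other mesenchyme held 14 UMIs of it in LI1, 37 in LI2, 4 in SI1 and 2 in SI2, which is 0.963, 1.70, 0.190 and 0.0897 CPM. All values were low, and both LI libraries lay above both SI libraries. Wif1 was lower in SI, with a log2 difference of −3.09 ± 0.60 (95% interval −4.46 to −1.71, edgeR adjusted p = 0.0282). The call was lost in DESeq2 (adjusted p = 0.054), without LI2 (−2.63, 0.0694) and without SI2 (−2.62, 0.0787). Cluster 0, which Pitx1, Igfbp5 and Scx led, held 47 of the 57 Wif1 UMIs of the other mesenchyme, as 11, 33, 3 and 0 UMIs in the same order of libraries. Mesothelial-like cells held 4 and 2 UMIs in LI and 3 and 6 in SI, without such a direction, and neural-like cells held 0 in all libraries, where 3 UMIs would be 0.538 to 1.27 CPM.

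Dkk2 (ENSMUSG00000028031, chr3:132085292-132180304, plus strand) differed between the regions less than Sfrp1 in the other mesenchyme. Its level there was 55.4 CPM in LI1, 103 in LI2, 79.2 in SI1 and 96.9 in SI2. Both SI values lay between those of LI, and the log2 difference was 0.30 ± 0.26 (95% interval −0.30 to 0.90, edgeR adjusted p = 0.646). It became −0.08 without LI1 and 0.77, which was called (adjusted p = 0.0104), without LI2. In smooth muscle-like cells the levels were 45.3 and 65.4 CPM in LI and 49.0 and 49.5 CPM in SI, a log2 difference of −0.03 ± 0.22 (95% interval −0.53 to 0.47). Leaving out LI2 turned this to 0.26, which was not called (adjusted p = 0.492).

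Mesothelial-like cells were different for Dkk2. The level was 19.9 and 54.8 CPM in the LI libraries and 90.8 and 126 CPM in the SI libraries, with thinned shares of 6.04% and 9.21% of cells in LI and 24.5% and 28.2% in SI. Regions did not overlap by either measure. The 10 fibroblast markers, all detected in each library, summed to 1655 and 2747 CPM in LI and 2903 and 3775 CPM in SI in these cells, also without overlap, against 1337 and 2141 CPM in LI and 1665 and 2138 CPM in SI in the other mesenchyme, and their part in the Dkk2 difference was not tested. At most 0.383% of neural-like cells in a library held Dkk2 after thinning. Within mesothelial-like cells alone the log2 difference of 1.63 ± 0.37 (95% interval 0.81 to 2.44) missed the threshold in edgeR (adjusted p = 0.0821), and in DESeq2 (0.553). Without LI1 it was 1.06 and not called (adjusted p = 0.0524). It was called without LI2 (2.46), SI1 (1.83) or SI2 (1.39), in fits with a single library in a region that called 841, 156 and 113 genes, against 95 with all 4 libraries. Of 11 alternatives, 7 called Dkk2 and 4 did not. One of those without a call, resolution 0.8, repeats the main fit, as the mesothelial-like cells were the same there. The difference between regions exceeded that in the other mesenchyme by 1.35 ± 0.20 on the log2 scale (interaction, 95% interval 0.93 to 1.78, edgeR adjusted p = 0.00232). Dkk2 was 1 call among 5 members in that interaction, in which 1.6% of all genes were called. Without SI2 the interaction was 1.24 with an adjusted p of 0.053.

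**Figure D3:**
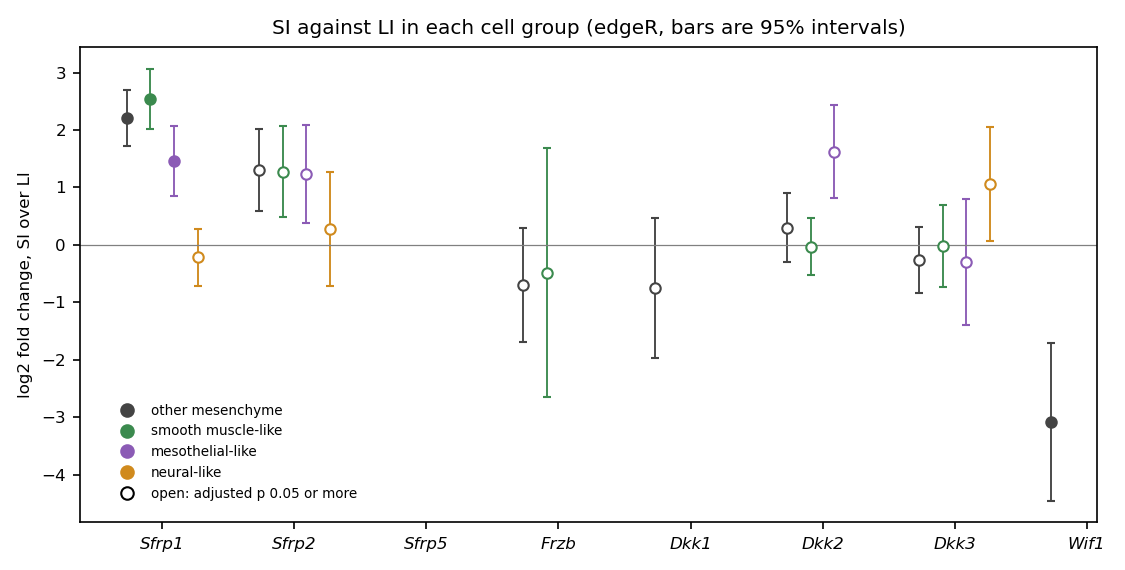
Log2 difference of SI over LI, with 95% intervals, for the members tested in each cell group; filled points are called and open points not called at an adjusted p under 0.05 in edgeR. Sfrp1 lies at 2.21 in the other mesenchyme, 2.54 in smooth muscle-like, 1.45 in mesothelial-like and −0.21 in neural-like cells.

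Dkk1 (ENSMUSG00000024868, chr19:30545863-30549665, minus strand), the best-known antagonist of LRP5 and LRP6, was rare. The other mesenchyme held 11 and 14 UMIs in LI and 10 and 6 in SI (log2 difference −0.75 ± 0.53, edgeR adjusted p = 0.556). Unnamed cluster 3, which Bmp3, Col14a1, Nrg1 and Hhip led, held 80 of all 161 UMIs, with 6 and 72 in LI and 0 and 2 in SI. The 72 UMIs of LI2 came from 19 of 470 cells, up to 15 in a single cell. In that library Dkk1 was thus at 14.2 CPM in cluster 3, against 2.10 CPM in LI1. A fit in cluster 3 alone, added after the data had been seen, called Dkk1 as lower in SI (log2 difference −5.55 ± 1.06, edgeR adjusted p = 0.0221), beside 384 of 11345 genes and resting on 2 UMIs in SI. Unnamed cluster 8, which Foxd1, Shisa3 and Foxc2 led, held 0 and 16 UMIs in LI and 6 and 7 in SI, in 11 cells. Over all kept cells the log2 difference of Dkk1 was −1.98 ± 0.61 (edgeR adjusted p = 0.211), and it rested in large part on LI2, without which it was −0.76 (0.491). It was called without LI1 (−2.61, 0.00129) or SI1 (−2.20, 0.0166), in fits that called 652 and 623 genes against 280. Neural-like cells held no Dkk1 UMI.

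Dkk3 (ENSMUSG00000030772, chr7:112116017-112159057, minus strand) was spread thinly over all groups. It stood at 5.57 and 5.41 CPM in LI and 4.32 and 3.90 CPM in SI in the other mesenchyme, and at 8.37, 5.86, 6.98 and 5.57 CPM in smooth muscle-like cells. In neural-like cells it was at 2.11 and 2.69 CPM in LI and 3.91 and 6.79 CPM in SI, a log2 difference of 1.05 ± 0.44 that was not called (edgeR adjusted p = 0.567). Within the neural-like cells the neuron-like cluster 9 lay at 8.06 to 16.4 CPM and cluster 7 at 0.662 to 3.65 CPM, without overlap between the clusters.

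Over all kept cells, where each library weighs its own mix of cell groups, 1 of 7 members tested was called, against 1.88% of all genes. That was Sfrp1, with a log2 difference of 2.37 ± 0.21 (edgeR adjusted p = 0.00478). Sfrp2 had 1.34 ± 0.32 (0.111) and Wif1 −2.06 ± 0.41 (0.0644). Without LI1, 4 members were called, without SI1 3, and without either of the other libraries 2, in fits that called 537 to 1925 genes against 280 with all 4 libraries.

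Cell groups were then compared within libraries, with library as a block. Neural-like cells had lower levels of the 3 most detected members than the other mesenchyme. Dkk2 was at 0.868 to 1.27 CPM in the 4 neural-like sums, 18 UMIs in 15 of 1246 cells, with a log2 difference of −6.43 ± 0.44 (edgeR adjusted p = 1.47e-08). Sfrp1 had a log2 difference of −2.55 ± 0.42 (adjusted p = 0.000117) and Sfrp2 of −1.91 ± 0.20 (1.58e-06). These were 3 calls among 5 members tested, where 59.8% of all genes were called, so that a call here was common. Each of the 3 stayed called whichever library was left out. Fibroblast markers summed to 31.4 to 53.6 CPM in neural-like cells, against 1337 to 2141 CPM in the other mesenchyme, and the part of mesenchymal RNA in the neural-like values was not tested.

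No member was called between smooth muscle-like cells and the other mesenchyme, of 5 tested, by edgeR or DESeq2. In this comparison 2 members had an unadjusted p under 0.05 and 11.5% of all genes were called. The log2 differences were 0.21 ± 0.35 for Sfrp1, −0.30 ± 0.16 for Sfrp2 and −0.64 ± 0.23 for Dkk2 (edgeR adjusted p = 0.0969 for Dkk2). Dkk2 was called without LI1 (−0.75, adjusted p = 0.0194). Mesothelial-like cells likewise gave no call among 5 members by either tool, 1 with an unadjusted p under 0.05, where 38.3% of all genes were called. Sfrp2 had a log2 difference of 0.39 ± 0.18 (edgeR adjusted p = 0.0928), Sfrp1 had −0.47 and Dkk2 −0.30. The fit gave a single difference for both regions. For Dkk2 the regions went opposite ways. Its mean in mesothelial-like cells was 37.3 CPM in LI, below 79.3 in the other mesenchyme, and 108 CPM in SI, above 88.1.

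Within the other mesenchyme the members were distributed unevenly over clusters 0, 2 and 4, led by Pitx1, by histone genes and by Anxa2, Tac2 and Wnt4. Dkk2 stood at 71.9 and 130.0 CPM in LI and 101 and 135 CPM in SI in cluster 0, at 44.7 to 80.4 CPM in cluster 2, and at 19.3 and 45.3 CPM in LI and 60.5 and 51.7 CPM in SI in cluster 4. Of these 3, cluster 0 had the highest and cluster 4 the lowest level in all 4 libraries. The log2 difference from the mean of the other clusters of the 3 was 0.94 ± 0.09 in cluster 0 (edgeR adjusted p = 1.25e-05) and −0.95 ± 0.11 in cluster 4 (1.65e-05). Clusters come from the same cells that are compared, and Dkk2, though left out of the clustering genes, was itself among the leading genes of cluster 0. Sfrp2 went the other way, with 0.55 ± 0.11 in cluster 4 (0.00148), where it stood at 9.65 and 16.4 CPM in LI and 28.1 and 38.6 CPM in SI. In cluster 2 Sfrp2 had −0.29 ± 0.10 (0.0362) and Sfrp1 0.53 ± 0.20 (0.0418). In DESeq2 neither was called, and in each case leaving out 1 library left only 1 of the pair called. Calls were 1, 2 and 2 of 5 members in clusters 0, 2 and 4, where 23.4%, 45.4% and 37.3% of all genes were called. The cluster 4 values depended on the clusters they were set against. In a comparison over clusters 0, 2, 3, 4, 6 and 8, added after the data had been seen, cluster 4 had 0.08 ± 0.16 for Dkk2 (edgeR adjusted p = 0.744) and 0.16 ± 0.28 for Sfrp2 (0.705), neither called, whereas Dkk2 in cluster 0 had 1.60 ± 0.13 (9.97e-08). Calls there were 1, 1, 5, 2, 2 and 4 of 6 members in the same order of clusters, beside 1670, 4078, 3461, 3424, 3489 and 1867 of 11873 genes.

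Sfrp1, Sfrp2 and Dkk1 reached their highest level in a library in clusters without a name, whereas Dkk2 was highest in cluster 0. Sfrp1 in cluster 3 was at 139 and 99.2 CPM in LI and 1027 and 784 CPM in SI, and 91.2% and 86.1% of its thinned SI cells held a UMI against 15.1% and 13.0% in LI. Dkk2 in the same cells lay at only 8.67 to 17.8 CPM, below each library's value in clusters 0, 2 and 4. Dkk3 was at 7.71 to 16.3 CPM there. In cluster 8 Sfrp2 stood at 9.27 and 25.1 CPM in LI, 9.78 in SI1 and 229.9 in SI2, where 49 of 121 cells held 291 UMIs, up to 34 in a single cell. Sfrp1 in cluster 8 was low in LI, at 41.7 and 7.17 CPM, and at 68.4 and 173 CPM in SI.

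**Figure D4:**
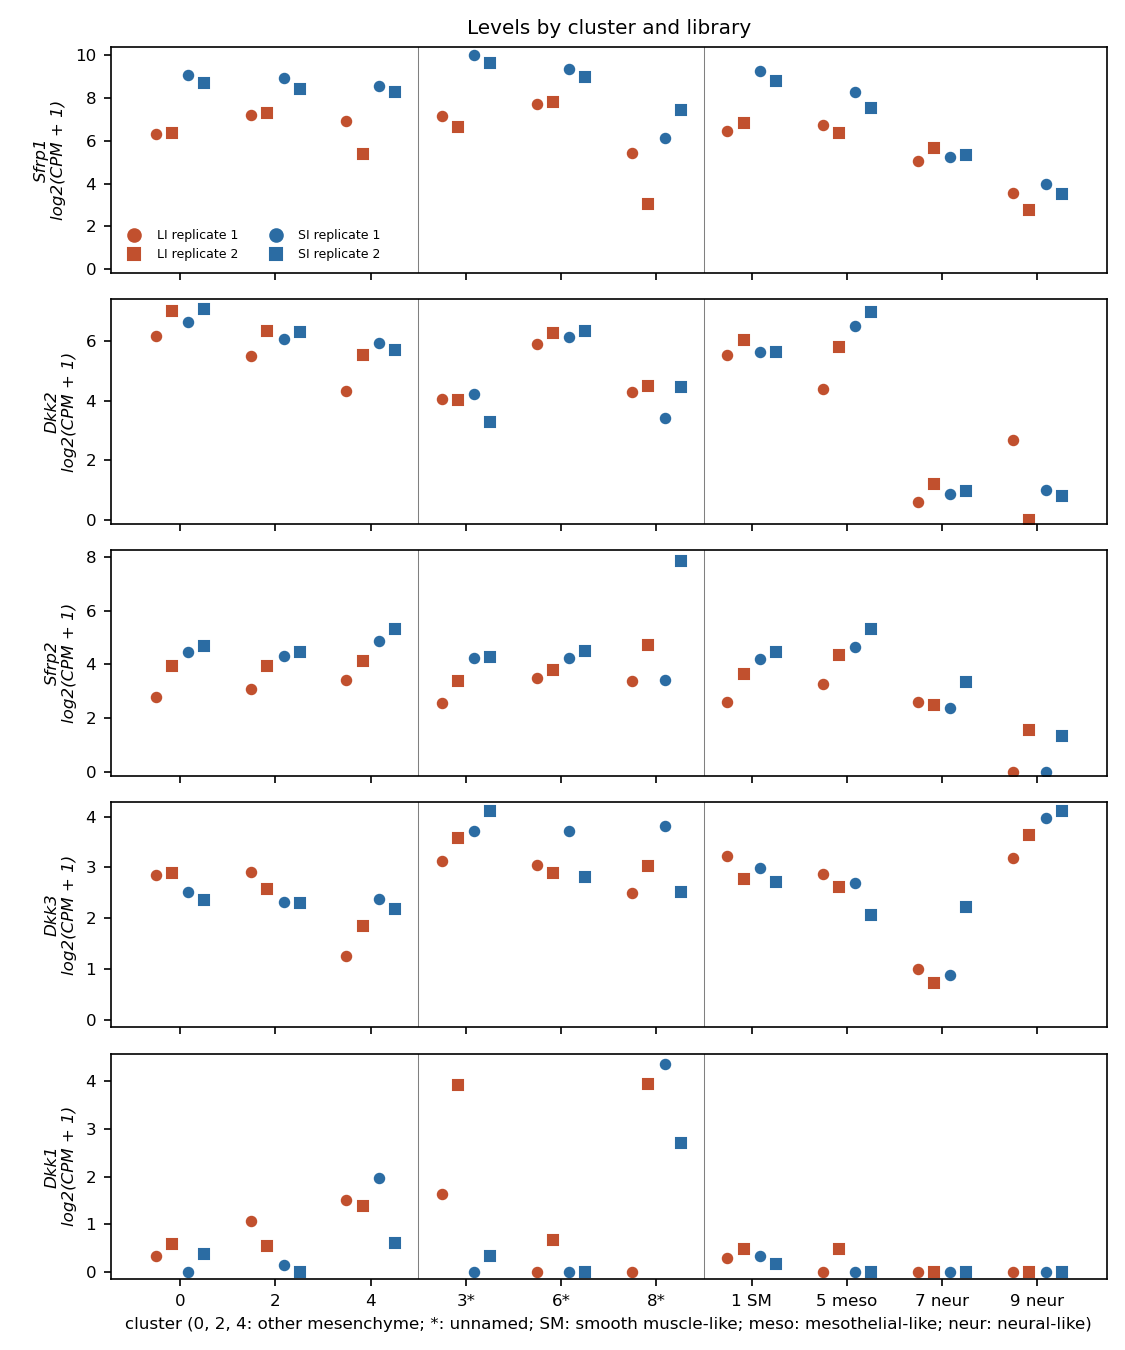
Level of Sfrp1, Dkk2, Sfrp2, Dkk3 and Dkk1 as log2(CPM + 1) by cluster, with 1 point per library, LI in red and SI in blue; cluster 10 is not drawn. Sfrp1 is highest and Dkk2 low in cluster 3 of SI1 (1027 and 17.8 CPM), and a single library, SI2, stands out for Sfrp2 in cluster 8.

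Fitted in single clusters, an analysis added after the data had been seen, the SI over LI difference of Sfrp1 was 2.71 on the log2 scale in cluster 0, 1.58 in cluster 2, 3.06 in cluster 3, 1.47 in cluster 6 and 2.10 in cluster 4, the last of which was not called (edgeR adjusted p = 0.107). LI2, at 40.8 CPM, and LI1, at 122 CPM, stood further apart in cluster 4 than in the other clusters fitted.

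Cells with UMIs of several members were few in LI and more common in SI. In the other mesenchyme, thinned to 3000 UMIs, 68.8% and 61.8% of LI cells and 26.1% and 31.4% of SI cells held a UMI of none of the 8, and 3.23% and 5.34% of LI cells and 17.8% and 17.5% of SI cells held exactly 2 members. Sfrp1 alone was in 13.7% of LI and 58.9% of SI cells (mean thinned shares). These counts contain that difference and are no separate result, and what remains without Sfrp1 was not tested. Dkk2 was found in 8.53% and 19.3% of Sfrp1-positive LI cells against 14.5% and 25.3% of Sfrp1-negative ones, and in 18.5% and 22.7% against 19.3% and 23.3% in SI. The share was lower among Sfrp1-positive cells in both LI libraries and nearly equal in SI, and this is a description without a test. The cells mix clusters that differ in both genes. In LI, Dkk2 was at 101 CPM in cluster 0 and 62.6 in cluster 2 on average, and Sfrp1 at 80.1 and 151. The part of that mix was not tested.

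The other genes of the pathway were counted by list. Between SI and LI in the other mesenchyme, where 3.51% of all genes were called, 9 of 18 other WNT inhibitors were tested and 1 was called, Shisa2, which retains Frizzled receptors inside the cell, higher in SI by 2.29 ± 0.34 on the log2 scale. The median of this list was 0.60, against 0.01 over all genes. Of 17 receptors and co-receptors tested, 1 was called, Fzd10, with a log2 difference of −2.47 ± 0.47 (median of the list −0.09). Of 10 ligands and R-spondins tested, 2 were higher and 2 lower in SI, among them the ligand Wnt16 (−4.86 ± 0.43) and Rspo1, which amplifies WNT signals (2.29 ± 0.22), with a list median of 0.11. Of 14 canonical response genes tested, only Cd44 was called (−2.77 ± 0.33), and the list median was 0.25.

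Between cell groups calls were common for all genes, 38.3% in mesothelial-like, 11.5% in smooth muscle-like and 59.8% in neural-like cells, and the list counts stand against these shares. In mesothelial-like cells, against the other mesenchyme, 4 of 8 other inhibitors tested were higher and 2 lower, led by Sostdc1 (log2 difference 4.61 ± 0.39) and Tmem88 (1.81 ± 0.17), and of 10 ligands and R-spondins 4 were higher and 1 lower, among them Rspo1 (2.74 ± 0.16) and Wnt9a (3.21 ± 0.21). Receptors gave 5 higher and 3 lower of 14, including Fzd4 (1.83 ± 0.16) and Ror2 (−1.40 ± 0.20), and response genes 3 and 3 of 12, including Axin2 (1.28 ± 0.20) and Lef1 (2.10 ± 0.42). The medians of these lists were 0.39, 0.27, 0.25 and −0.16 in that order, against −0.03 over all genes. In smooth muscle-like cells 1 inhibitor was higher and 2 lower of 8 (Tmem88 −1.79 ± 0.20, Shisa3 −1.96 ± 0.39), 2 receptors higher of 14 (Fzd4 0.66 ± 0.15, Lgr4 0.59 ± 0.14), 1 ligand higher and 4 lower of 10 (Wnt4 −2.17 ± 0.26, Wnt5b −0.61 ± 0.13), and 2 response genes higher and 1 lower of 12 (Nkd1 1.07 ± 0.13, Myc 0.61 ± 0.13). The list medians were 0.02, −0.10, −0.08 and −0.10, against 0.00 over all genes. In neural-like cells 8 of 10 ligands tested were lower and none higher, including Wnt5a (−4.20 ± 0.21) and Rspo3 (−3.38 ± 0.19), and 10 of 14 receptors were lower and 1 higher, including Fzd2 (−2.43 ± 0.14) and Ror2 (−4.16 ± 0.25). Inhibitors gave 2 higher and 4 lower of 8 (Kremen1 1.14 ± 0.15, Tmem88 −2.03 ± 0.23), and response genes 5 and 5 of 12 (Tcf4 1.26 ± 0.07, Nkd1 −2.77 ± 0.21). The list medians were −3.10, −1.01, −0.21 and −0.02 in that order, against −0.01 over all genes.

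The genes most like each of the 3 well-detected members were sought over the 16 sums of 4 cell groups and 4 libraries, among 4994 genes that reached 50 CPM in at least 1 sum. By Pearson correlation of log2(CPM + 1), Sfrp1 was most like Rgs10 (r = 0.92), Aldh1a7 (0.90) and Acaa2 (0.89). Sfrp2 was most like Efnb2, P3h3 and Crtap, each at 0.94, and Dkk2 most like Islr (0.99), Npr3 (0.98) and Meg3 (0.98). Sums of a library share its depth and kit, and the neural-like sums stand apart for many genes, so these values are a description only.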

How the data were processed

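Each library was a 10x Genomics 3′ v3 or 5′ library, and which kit served which library is not stated. The authors aligned reads to mm10 and counted UMIs with Cell Ranger 3.1.0, and the deposited values are raw UMI counts per gene and barcode, without normalization; the submitters' notes also name Seurat 3. Region and replicate number come from the titles, as other labels of the same samples name adult tissue. Nothing beyond the 2 experiments says how embryos were divided, so p-values measure the spread between these libraries.

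Cells with at least 1000 genes and under 10% mitochondrial UMIs were kept. As Scrublet (scanpy 1.11.5) marked only 1 to 6 cells a library, the 183 to 348 cells with the highest scores (0.8% per 1000 cells) were removed as doublets. Libraries were integrated in Seurat 5.3.0 (R 4.3.3) on 30 principal components, with 1955 genes, the members and other WNT genes left out, and clustered at resolution 0.3 into 11 clusters. A cluster took the name of a marker class with 3 or more markers among its 10 leading genes. It was counted as other mesenchyme if no leading gene was a marker of another class. It then also needed 3 or more fibroblast markers, each detected in at least 10% of its cells. Rebuilt names may not match those of the study.

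Counts were summed per library and group and tested with edgeR 4.0.16 (quasi-likelihood, TMM, filterByExpr), with Benjamini-Hochberg adjustment over all genes tested and calls at an adjusted p under 0.05. Region tests had 2 libraries a side, and group tests had library as a block. SE is the absolute log2 difference over the root of F. DESeq2 1.42.0, no filter, no doublet removal, resolution 0.8, thinned sums and each library left out were alternatives. The test script was checked on simulated counts. Intervals of shares are exact binomial ones and, like the 3-UMI floor, cover counting error only. With 2 libraries a region, an exact permutation test cannot reach 0.05, and shares were not tested. Replicate sums differed by more than sampling noise (chi-square per degree of freedom 2.96 to 34.8). Positions come from GENCODE in mm10. The members, gene lists and tests were chosen with earlier results of these data known, and the named genes are the 8 members, per pathway list at most 2 called genes, those of smallest adjusted p, and the 3 genes most like a member. Python 3.11.15 was used for figures and tables.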

Additional observations from a re-analysis of the deposited data

Results flagged for a closer look

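The SI over LI difference of Sfrp1 in neural-like cells was flagged since it differed from that in the other mesenchyme by a test of the difference itself (interaction −2.42 on the log2 scale, edgeR adjusted p = 2.49e-05). The Sfrp1 level was 28.7 to 41.3 CPM in the 4 neural-like sums, whereas both SI sums of the other mesenchyme lay above both of LI.

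For Dkk2 the difference between regions was larger in mesothelial-like cells than in the other mesenchyme (interaction 1.35, edgeR adjusted p = 0.00232). Without SI2 it was 1.24, with an adjusted p of 0.053. Fibroblast markers in mesothelial-like cells were also higher in both SI libraries (2903 and 3775 CPM) than in both of LI (1655 and 2747 CPM).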

How the results depend on the processing

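Of the alternative values for the members' log2 differences printed above or here, 321 kept their direction and their side of the threshold, 46 passed it newly, 13 lost it and 11 reversed. Sfrp1 was called as higher in SI in the other mesenchyme, in smooth muscle-like cells and over all kept cells, and as lower in neural-like cells than in the other mesenchyme, under every alternative run except the fit in cluster 4 alone. Without the filter on low counts, the number of members called between regions was 2 in smooth muscle-like cells, 3 in mesothelial-like cells and 4 over all kept cells; between groups it was 1 for smooth muscle-like and 6 for neural-like cells, 3 in the mesothelial and 3 in the neural interaction, and 2 in cluster 0 and 5 in cluster 4. The same fits called, between regions, 899 of 17616 genes in smooth muscle-like cells (158 of 12257 with the filter), 439 of 16510 in mesothelial-like cells (95 of 10656) and 1167 of 20396 over all kept cells (280 of 14926). Between groups they called 1586 of 20049 genes for smooth muscle-like and 8071 for neural-like cells, 694 in the mesothelial and 1812 in the neural interaction, and 3104 of 19039 in cluster 0 and 4936 in cluster 4. Without doublet removal 2 members were called between regions in mesothelial-like cells, beside 158 of 10910 genes. Against the other mesenchyme these cells gave 1 call (4855 of 12592), and cluster 2, set against cluster 0 alone, gave 1 (4999 of 12275). DESeq2 called 2 over all kept cells and 0 in cluster 2, beside 627 of 14926 and 4483 of 12146 genes. Sums thinned to equal totals gave 2 calls in mesothelial-like cells, and counting unnamed clusters as other mesenchyme gave 2 in the mesothelial interaction, beside 127 of 9718 and 249 of 13182 genes. Single clusters, chosen after seeing the data, gave 3 calls between regions in cluster 0 (Sfrp1, Sfrp2, Wif1), 1 in cluster 2, 3 in cluster 3 (Sfrp1, Sfrp2, Dkk1), 0 in cluster 4 and 1 in cluster 6, beside 682 of 12443, 400 of 11732, 384 of 11345, 50 of 10909 and 150 of 9797 genes. The causes were not tested.

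With 1 library left out at a time, the number of members called between regions was 1 to 3 in the other mesenchyme and in mesothelial-like cells, 1 to 2 in smooth muscle-like cells and 2 to 4 over all kept cells. Those fits called 449 to 1759 genes in the other mesenchyme, 113 to 841 in mesothelial-like cells, 113 to 553 in smooth muscle-like cells and 537 to 1925 over all kept cells. It was 0 to 1 for smooth muscle-like and 3 to 5 for neural-like cells against the other mesenchyme, 0 to 2 in the mesothelial interaction, 1 to 2 in the neural interaction and 1 in cluster 2, beside 641 to 1612, 6103 to 7181, 58 to 234, 418 to 1086 and 4237 to 4955 genes. Over the 6 clusters it was 1 to 2 in cluster 2, 3 to 4 in cluster 3, 1 to 2 in cluster 4 and 3 to 5 in cluster 8. Among the log2 differences printed above or here, those between regions that reversed were of Dkk2 in the other mesenchyme (−0.11 in cluster 3 alone, −0.0811 to 0.77 with 1 library left out), in smooth muscle-like cells (0.0227 without doublet removal, −0.26 to 0.26 with 1 library left out) and over all kept cells (0.23 with all libraries, −0.0878 to 0.58 with 1 left out), of Sfrp1 in neural-like cells (0.53 without doublet removal, −0.39 to 0.0419 with 1 library left out) and of Sfrp2 in neural-like cells (0.28 with all libraries, −0.38 to 0.69 with 1 left out). Sfrp1 in smooth muscle-like cells against the other mesenchyme became −0.0587 at resolution 0.8 and −0.0271 with unnamed clusters counted. Sfrp2 in cluster 2 became 0.0461 without doublet removal, against cluster 0 alone. None of the reversed values listed so far was called, and of the other ends of these ranges only that of Dkk2 in the other mesenchyme (0.77, without LI2) was. Region differences of Dkk3 and Frzb, not printed above, also changed sign in some settings without a call. Dkk2 in cluster 2 went from 0.01 to −0.56 (called) without doublet removal, against cluster 0 alone. Replicate numbers mark no stated pairing, and same-numbered libraries deviated together with r of 0.27 to 0.45 in 2 pairs, which does not settle one. With a replicate block 2 members were called in smooth muscle-like cells, 3 in mesothelial-like cells and 3 over all kept cells, in fits that called 1397 of 12257, 758 of 10656 and 1000 of 14926 genes. Depth limits Dkk1, Wif1, Sfrp5 and Frzb, where a library's group held a few UMIs.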

Other observations

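Frzb over all kept cells was at 4.15 and 2.09 CPM in LI1 and LI2 and at 2.48 and 1.25 CPM in SI1 and SI2. Unnamed cluster 10, which Pf4, Afp and Hbb-bt led, held 174 cells, 153 of them from LI2, with 45 Sfrp1 UMIs in 27 cells and 30 Dkk2 UMIs in 28 cells.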
